A study of Mus musculus with 2 samples.

Results

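The G1 cyclins and the inhibitors of cyclin-dependent kinases (CDKs) were examined in mouse jejunum as 10 genes of 18193 with a probe set of their own. The members are the D-type cyclin genes Ccnd1, Ccnd2 and Ccnd3, the E-type cyclin genes Ccne1 and Ccne2, the CIP/KIP inhibitor genes Cdkn1a, Cdkn1b and Cdkn1c, and the INK4 inhibitor genes Cdkn2b and Cdkn2c. They were chosen by name, and every probe set whose platform annotation gives 1 of these symbols was taken, 23 of 34945 probe sets with a single symbol. The series holds 2 Affymetrix Mouse Genome 430 2.0 arrays, on which short oligonucleotide probe sets read labelled cRNA. The wild-type array carries a pool of RNA from 3 wild-type mice and the other array a pool from 3 mice labelled XBP1 knock-out. RNA came from intestinal scrapings, so epithelium, lymphocytes and other mucosal cells are measured together. The labels give no strain, age or sex, and no allele, promoter or Cre. As background, the study known under this title deleted floxed Xbp1 in intestinal epithelium with a Cre driven by the villin promoter.

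In G1, D-type cyclins bind CDK4 or CDK6 and E-type cyclins bind CDK2, and these kinases phosphorylate the retinoblastoma protein so that E2F factors can switch on genes of DNA synthesis. INK4 proteins block CDK4 and CDK6, whereas CIP/KIP proteins bind cyclin-CDK complexes more broadly and restrain CDK2. In the small intestine, cells divide in the crypts and leave the cycle as they move onto the villus, so G1 cyclins and inhibitors are known to mark different heights along that axis.

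With 1 array for each genotype there is no spread between replicates, no p-value is given, and precision is limited by the number of arrays. In bulk tissue fewer cells of a type and less RNA per cell cannot be told apart. Signals are MAS5 values, scaled here to a common 75th percentile, and those below a floor of 68.1 units were set to it. Log2 ratios subtract the wild-type from the knock-out-labelled array. Each gene is represented by the probe set whose mean floored log2 signal is highest. As a technical yardstick, ratios of different probe sets of a gene scattered with a standard deviation (SD) of 0.30 over 3412 genes, which holds no variation between mice. It was taken around the mean of each gene. Where ratios are set against it from 0, the median of all measured genes, -0.11, is not subtracted. The targeted gene Xbp1 had signals of 8143 on the wild-type array and 6782 on the knock-out-labelled array, a log2 ratio of -0.26, and its other probe sets gave -0.15, 0.06 and -0.24. These probe sets may lie outside the deleted part, so they check neither label, and every direction rests on the labels. The tissue label was checked against absorptive enterocyte genes, and all 9 that a probe set reads alone lay above the floor.

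The G1 genes as a group had a median close to that of all measured genes, and the 2 gene-level ratios farthest from 0 were those of the cyclin genes Ccne1 and Ccnd1. All 10 genes exceeded the floor on at least 1 array, as did 22 of the 23 probe sets, and 18 exceeded it on both. Ccne1 was at least 2-fold higher on the knock-out-labelled array, and 0 of the 10 genes were at least 2-fold lower. Over 12826 measured genes, 2.25% were higher by 2-fold or more and 5.08% lower by 2-fold or more, so 1 and 0 of 10 are near those shares. The median log2 ratio of the members was -0.08, beside -0.11 for all measured genes, with 4 members above 0 and 6 below. Most measured genes lie below 0 at this scaling, so counts below 0 hold that offset. Above the median of all measured genes lay 6 of the 10 members. Among the 22 measured probe sets, 2 passed 2-fold upward and 0 downward, against 2.48% and 4.53% of 22053 measured probe sets with a single symbol.

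**Figure D1:**
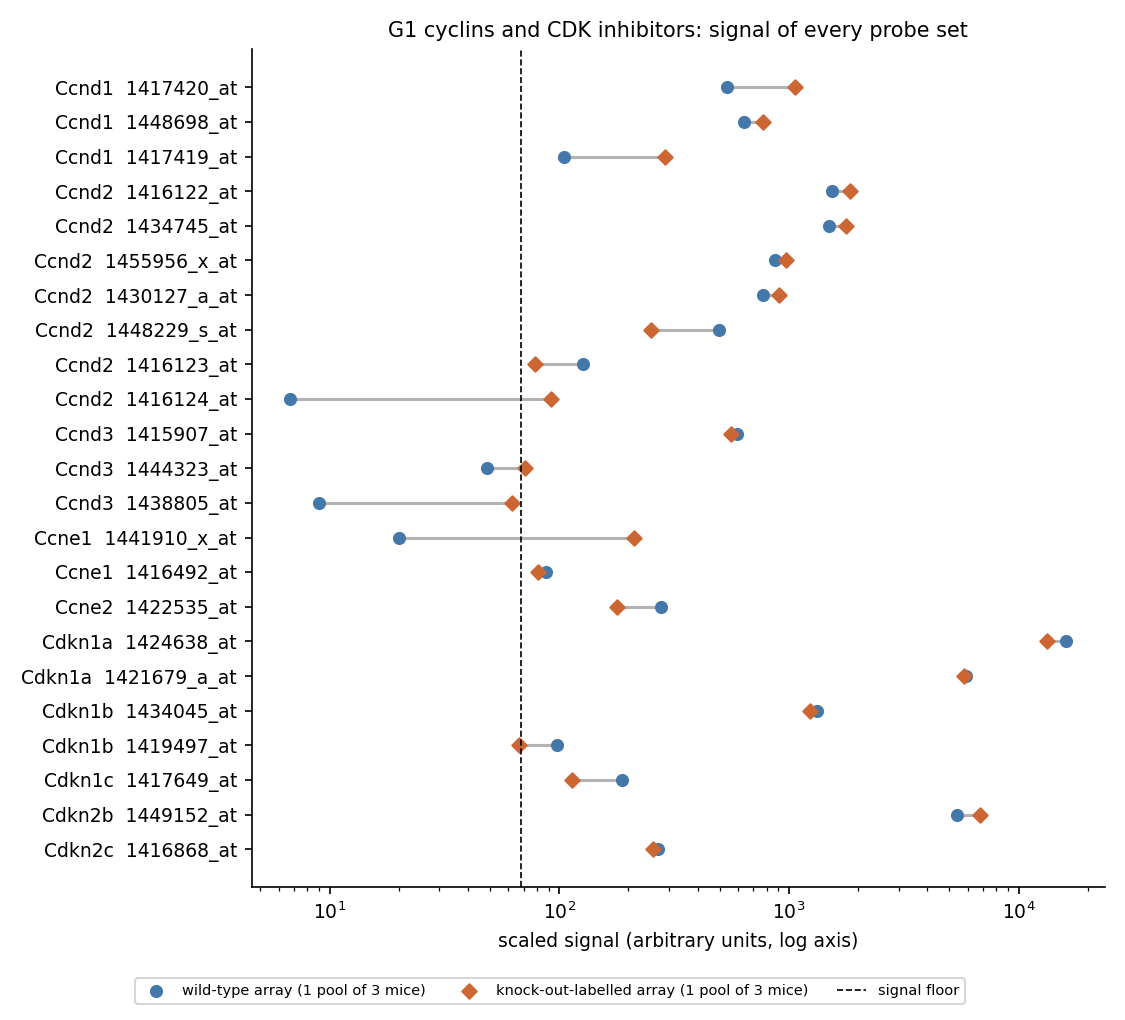
Scaled signal of each of the 23 probe sets on the wild-type array (circles) and the knock-out-labelled array (diamonds), on a log axis, with the floor of 68.1 units as a dashed line. Lines join the values of 1 probe set, and the widest gaps are on probe sets whose wild-type signal lies below the floor, such as 20.0 against 211 for Ccne1.

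Ccnd1 encodes cyclin D1, a partner of CDK4 and CDK6 that growth factor and Wnt signals induce. Its probe set 1417420_at had a signal of 539 on the wild-type array and 1064 on the knock-out-labelled array. The signal was higher on the knock-out-labelled array by 1.97-fold, a log2 ratio of 0.98 that lies just short of the 2-fold threshold. Of all measured genes, 2.40% had a higher ratio. A dimmer probe set, 1417419_at, had signals of 105 and 290, which is 2.76-fold higher with a log2 ratio of 1.47. Probe set 1448698_at had signals of 640 and 771, a log2 ratio of 0.27 that is within the SD of 0.30 between probe sets. All 3 probe sets of Ccnd1 were therefore higher on the knock-out-labelled array, but by amounts from 1.20-fold to 2.76-fold. Its gene-level ratio was above 0 in each of 6 scalings of the arrays, from 0.98 to 1.75, and passed 2-fold in 4 of them.

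Ccnd2 encodes cyclin D2, which can replace cyclin D1 in activating the same kinases, and was read by 7 probe sets that did not share a direction. The brightest, 1416122_at, had signals of 1546 and 1841 on the wild-type and knock-out-labelled arrays, a log2 ratio of 0.25. Probe set 1434745_at gave signals of 1492 and 1778, again 0.25, and 1430127_a_at and 1455956_x_at gave log2 ratios of 0.23 and 0.17. These 4 brightest probe sets lay within 1 SD of 0. By contrast, 1448229_s_at had signals of 494 and 251, a log2 ratio of -0.98 that falls just short of 2-fold lower, and the dim probe set 1416123_at had 127 and 78.6, a ratio of -0.69. The dimmest, 1416124_at, was below the floor on the wild-type array and at 92.2 in the other, which gives a log2 ratio of at least 0.44. The 7 probe sets thus ran from -0.98 to 0.44 around a median of 0.23, and why they disagree was not tested.

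Ccnd3 encodes cyclin D3, the third D-type cyclin. Its bright probe set, 1415907_at, had signals of 594 on the wild-type array and 558 on the knock-out-labelled array, a log2 ratio of -0.09 that is below 0 in 3 of the 6 scalings and above 0 in the other 3. The remaining probe sets were dim. Probe set 1444323_at had signals of 48.3 and 71.1, a floored log2 ratio of at least 0.06, and 1438805_at was below the floor on both arrays. The D-type cyclin genes as a group had a median log2 ratio of 0.25 and 0 of 3 passed 2-fold, with Ccnd1 the highest at 0.98.

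**Figure D2:**
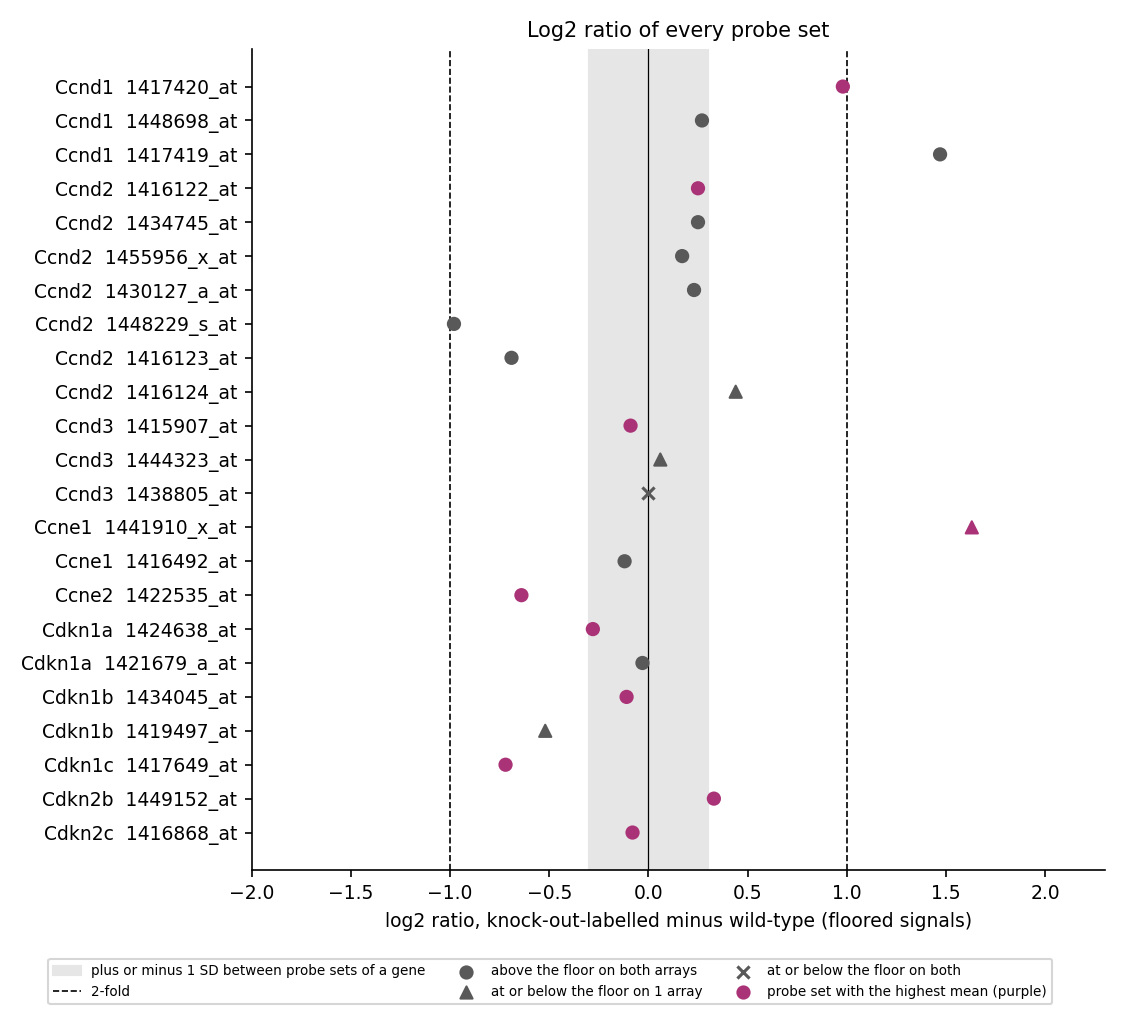
Log2 ratio (knock-out-labelled minus wild-type, floored signals) of each of the 23 probe sets, with the probe set used for the gene in purple, the SD of 0.30 between probe sets of a gene as a grey band and 2-fold as dashed lines. Triangles are probe sets at or below the floor on 1 array, whose ratios are bounds, and the cross is below it on both. The ratios of 1.63 (Ccne1) and 1.47 (Ccnd1) lie past 2-fold, and Ccnd2 spans -0.98 to 0.44.

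Ccne1 encodes cyclin E1, which activates CDK2 at the entry into S phase and is a known target of E2F. Its probe set 1441910_x_at had a signal of 20.0 on the wild-type array, below the floor, and 211 on the knock-out-labelled array. Against the floor this is at least 3.09-fold higher, a log2 ratio of at least 1.63, and 0.366% of all measured genes had a higher ratio. The second probe set, 1416492_at, had signals of 87.7 and 80.7, a log2 ratio of -0.12. The call of Ccne1 thus rests on 1 dim probe set whose suffix, x, marks probes that may bind other transcripts, and the other probe set does not show it. It stayed past 2-fold in each of the 6 scalings, but with probe sets without a suffix, or with the floor at the 25th percentile, the gene-level ratio was -0.12.

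Ccne2 encodes cyclin E2, a second activator of CDK2, and was read by 1 probe set. Its signal was 276 on the wild-type array and 178 on the knock-out-labelled array, 1.55-fold lower. The log2 ratio was -0.64, below 0 in 5 of the 6 scalings and 0.14 with the hybridisation spikes made equal. Among the 6640 measured probe sets within 2-fold of its mean signal, 16.1% had a ratio as low or lower. On the probe sets used at this scaling, the genes of the E-type cyclins lay on opposite sides of 0. The second Ccne1 probe set, at -0.12, lay on the same side as Ccne2. With the hybridisation spikes made equal both genes were above 0.

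The RefSeq window before the start of Ccne1 is shown because this gene had the highest ratio of the members. Capitals mark the GC box, the letters GGGCGGG on either strand, to which SP-family factors bind. The sequence covers the 250 bases before the start at chr7:38107491-38107740 (GRCm38.p6, minus strand), written 5′ to 3′.
Ccne1: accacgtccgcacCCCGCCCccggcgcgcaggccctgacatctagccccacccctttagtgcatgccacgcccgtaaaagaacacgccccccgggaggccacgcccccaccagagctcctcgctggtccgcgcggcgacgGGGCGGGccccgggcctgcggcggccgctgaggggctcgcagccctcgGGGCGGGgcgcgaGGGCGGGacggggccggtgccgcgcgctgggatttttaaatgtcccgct
The Ccne1 window holds 4 GC boxes, and 76.0% of its bases are G or C, beside a median of 52.4% over all windows. Of 32851 such windows in the RefSeq table, 23.4% hold at least 1 GC box. The E2F letters TTTCCCGC, TTTGGCGC, TTTCGCGC and TTTGCCGC, searched on both strands, occur in 1.86% of all windows and not in this one.

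Cdkn1a encodes p21, the CIP/KIP inhibitor that p53 and differentiation signals induce. Its brighter probe set, 1424638_at, had a signal of 16071 on the wild-type array and 13255 on the knock-out-labelled array. The log2 ratio of -0.28 lies within the SD between probe sets, is below 0 in 5 of the 6 scalings and is 0.50 with the hybridisation spikes made equal. It was 0.05 with the median ratio of the labelling spikes set to 0, a scaling added after seeing the data. The second probe set, 1421679_a_at, had signals of 5906 and 5771, a log2 ratio of -0.03. Both probe sets were far above the floor on both arrays. Of all measured genes, 34.8% had a lower ratio than Cdkn1a.

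The windows before both RefSeq starts of Cdkn1a are shown because this gene had strong signal and a small difference. Capitals in the first window mark a match to the p53 response element, taken as a pair of adjacent decamers with at most 1 mismatch in 20 positions, and capitals in the second mark GC boxes. The first window lies at chr17:29090729-29090978 and the second at chr17:29093519-29093768, both on the plus strand of GRCm38.p6.
Cdkn1a, first start: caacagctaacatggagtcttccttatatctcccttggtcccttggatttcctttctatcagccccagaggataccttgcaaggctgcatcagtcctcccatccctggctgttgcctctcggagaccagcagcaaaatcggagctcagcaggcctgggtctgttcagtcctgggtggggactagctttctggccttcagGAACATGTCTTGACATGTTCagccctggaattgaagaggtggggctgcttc
Cdkn1a, second start: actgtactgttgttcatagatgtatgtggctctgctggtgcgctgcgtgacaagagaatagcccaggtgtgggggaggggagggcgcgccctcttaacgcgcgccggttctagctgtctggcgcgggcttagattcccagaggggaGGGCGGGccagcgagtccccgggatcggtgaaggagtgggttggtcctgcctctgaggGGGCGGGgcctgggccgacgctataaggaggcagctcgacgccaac
The p53 match is 20 bases long and begins 51 bases before the first start. Such a match is present in 25 of 32851 windows, or 0.0761%, and among the members only Cdkn1a has one in the windows searched. A match describes the letters and is not evidence of binding. The second window has 2 GC boxes, which begin 104 and 46 bases before that start.

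Cdkn1b encodes p27, which holds CDK2 inactive in resting cells. Its bright probe set, 1434045_at, had signals of 1325 and 1229 on the wild-type and knock-out-labelled arrays, a log2 ratio of -0.11 that is above 0 in 2 of the 6 scalings. The dim probe set 1419497_at had signals of 97.6 and 66.9, the latter below the floor, for a log2 ratio of at most -0.52. Cdkn1c encodes p57, an imprinted inhibitor, and its probe set had signals of 188 and 114. That is 1.65-fold lower on the knock-out-labelled array, with a log2 ratio of -0.72, the lowest gene-level ratio of the 10 members. The Cdkn1c ratio was below 0 in 5 of the 6 scalings and 0.05 with the hybridisation spikes made equal. Of 9651 measured probe sets within 2-fold of its mean signal, 15.7% had a ratio as low or lower.

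All 5 probe sets of the CIP/KIP genes had ratios below 0 at this scaling, from -0.72 to -0.03, and 0 of 3 genes passed 2-fold in either direction. As deposited, the second Cdkn1a probe set was at 0.06, and all 3 genes were above 0 with the hybridisation spikes made equal. The CIP/KIP median of -0.28 compares with -0.11 for all measured genes.

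Cdkn2b encodes p15, an inhibitor of CDK4 and CDK6 that TGF-beta is known to induce. Its single probe set had a signal of 5413 on the wild-type array and 6821 on the knock-out-labelled array, 1.26-fold higher. The log2 ratio of 0.33 is just above the SD of 0.30 between probe sets. It was above 0 in each of the 6 scalings, from 0.33 to 1.11, and Cdkn2b was the only inhibitor of the 5 for which this held. Among 1865 measured probe sets of similar signal, 10.3% had a ratio as high or higher. Cdkn2c encodes p18, a further INK4 protein, and had signals of 269 and 255 on the wild-type and knock-out-labelled arrays. Its log2 ratio of -0.08 is below 0 in 3 of the 6 scalings and above 0 in the other 3.

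The window before the start of Cdkn2b is shown because this gene was the inhibitor with the highest ratio. Capitals mark the cAMP response element TGACGTCA, a palindrome that CREB and ATF factors bind. The window lies at chr4:89311033-89311282 on the minus strand of GRCm38.p6.
Cdkn2b: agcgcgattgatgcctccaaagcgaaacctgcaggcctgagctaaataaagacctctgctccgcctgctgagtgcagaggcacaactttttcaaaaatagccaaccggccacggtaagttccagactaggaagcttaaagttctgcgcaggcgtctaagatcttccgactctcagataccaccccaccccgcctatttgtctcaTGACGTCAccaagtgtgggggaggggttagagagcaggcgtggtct
The match begins 46 bases before the start, and 1.55% of all windows hold these letters. Among the members it occurs in Cdkn2b alone, for 6 of 10 genes that have a window in the table. Elements of the unfolded protein response were also searched on both strands. These were the ER stress response element, CCAAT and CCACG spaced by 9 bases, the XBP1-type core TGACGTGG and the ATF4-type element TGATGNAAN. They occur in 0.113%, 0.563% and 3.44% of all windows and in none of the 9 windows of these 6 genes. That says only that these letters are not in these windows.

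Cyclins and inhibitors were then set side by side. The 5 cyclin genes had a median log2 ratio of 0.25 and ran from -0.64 to 1.63, and the 5 inhibitor genes had a median of -0.11 and ran from -0.72 to 0.33. The ranges overlap. Relative to the median of all measured genes, the cyclin median was higher by 0.31 to 0.41 over the 6 scalings, while the inhibitor median lay between -0.04 and 0.05. The cyclin difference depends in part on the dim Ccne1 probe set. It was 0.02 with probe sets without a suffix and 0.05 with the floor at the 25th percentile. In either setting Ccne1 is read by its other probe set and the cyclin median is -0.09. With the floor at the 75th percentile, where 3 cyclins were measured and Ccne1 was not, the difference was 0.32. With the median over probe sets it was 0.33. The median of all genes itself moved from -0.11 to 0.61 with the hybridisation spikes made equal and to 0.02 with the labelling spikes made equal. Those spikes are control RNAs usually added in fixed amounts. Their deposited median log2 signals differed between the arrays by -0.68 for 18 hybridisation probe sets and by -0.05 for 27 labelling probe sets, which sets the size of these scalings. The median of the labelling probe sets' own ratios was -0.23. With that median set to 0, a scaling added after seeing the data, the median of all genes was 0.20 and the cyclin median 0.38 above it.

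**Figure D3:**
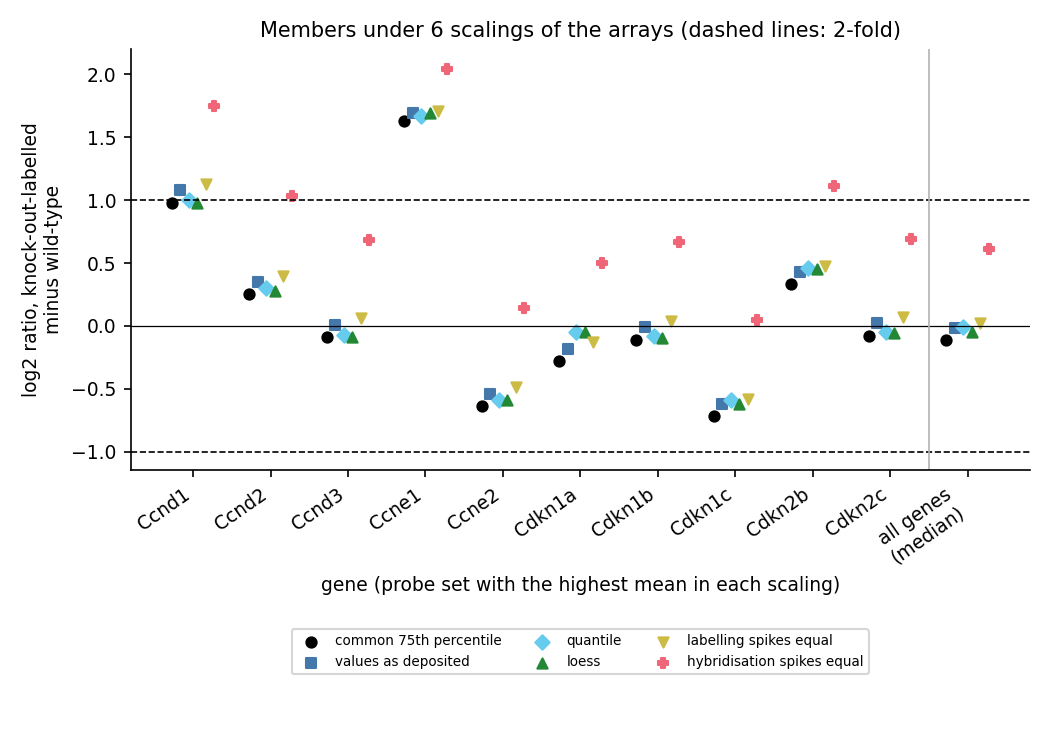
Log2 ratio of each member under 6 scalings of the arrays, with the median of all measured genes at the right and 2-fold as dashed lines. Ccnd1, Ccnd2, Ccne1 and Cdkn2b lie above 0 in every scaling shown, while Ccne2, Cdkn1a and Cdkn1c lie below 0 except with equal hybridisation spikes, a scaling that puts the median of all genes at 0.61.

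Other genes of the G1 pathway were read from lists written from textbook knowledge. The kinases and their activators showed 0 of 12 genes past 2-fold in either direction, with a median log2 ratio of 0.11. Cdk1, the mitotic kinase, had signals of 324 and 642 and the highest ratio, 0.99. Cdc25c, a phosphatase that activates it, was the lowest, at most -0.58 with the knock-out-labelled signal below the floor. The direct partners of the members, named after their values were seen, did not move as one. Cdk4 had signals of 489 and 797, a ratio of 0.70, and its other probe sets gave 0.58 and 0.95. Cdk6 was at 0.04 and Cdk2 at -0.04.

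Of 4 measured cyclins of later phases, 2 passed 2-fold upward and 0 downward, with a median of 0.71 and ratios on both sides of 0. Ccna2, the cyclin of S and G2 phase, had signals of 249 and 614, which is 2.47-fold higher, and its second probe set gave a log2 ratio of 1.51. Ccnb2, a mitotic cyclin, had signals of 288 and 616, or 2.14-fold higher. The remaining members, named after their values were seen, did not pass 2-fold. Ccnf was at 0.32, and Ccna1 at most -0.26 with signals of 81.5 and, below the floor, 13.1. Among the other CDK inhibitors, 0 of 3 passed 2-fold and the median was -0.10. Cdkn3, a CDK phosphatase that is itself expressed in cycling cells, was at 0.52, and Cdkn2a, the INK4a/ARF gene next to Cdkn2b, was at most -0.31 with signals of 84.6 and, below the floor, 55.8.

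Pocket proteins and E2F factors, which the G1 kinases control, had a median of 0.09 with 0 of 13 past 2-fold. E2f8, an atypical repressor E2F, had the highest ratio at 0.97, with signals of 105 and 205. Tfdp2, a dimer partner of E2F, had the lowest at -0.83, with signals of 1628 and 915. Genes that E2F is known to activate at S phase had a median of 0.50 over 14 measured genes, with 11 above 0, 2 at least 2-fold higher and 0 lower. Mcm3 and Mcm2, subunits of the replicative helicase, were 2.37-fold and 2.11-fold higher on the probe sets used. Other probe sets of Mcm3 gave log2 ratios from -0.45 to 0.35 and that of Mcm2 gave 0.11, so neither call is shared by a second probe set. Further genes of this list are named after their values were seen. Rrm2, at 0.91, had other probe sets at 1.29 and 1.47, and Mcm5, at 0.76, had another at 1.15. Other probe sets of Mcm6 gave -0.21 and 1.06, and that of Mcm4 gave -0.08.

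Genes for the turnover of cyclins and inhibitors had a median of 0.10 and 0 of 16 past 2-fold. Cks1b, the cofactor with which SKP2 targets p27, had signals of 401 and 797 and the highest ratio, 0.99, and its second probe set gave 0.76. Usp28, a deubiquitinase, was the lowest at -0.47. Of 16 measured genes of p53 and its targets, 2 were lower by at least 2-fold, 0 were higher by that much, and the median was -0.14. Btg2, an antiproliferative gene, had signals of 3854 and 1815, or 2.12-fold lower, and its second probe set gave -0.99. Sesn1, a stress-induced inhibitor of growth signalling, was 2.04-fold lower, while its other probe sets ran from -0.74 to 0.28. As deposited, 0 genes of this list were at least 2-fold lower.

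Upstream regulators of G1 genes had a median of -0.26 over 22 measured genes, with 17 below 0 and 1 past 2-fold in each direction. Tgfbr2, a receptor for TGF-beta, had signals of 300.2 and 641, or 2.14-fold higher. Mycn, a MYC family gene, had 193 on the wild-type array and was below the floor in the other, at least 2.84-fold lower, but its second probe set gave a log2 ratio of 0.12. Myc itself, named after its value was seen, had signals of 156 and 201, a ratio of 0.36.

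**Figure D4:**
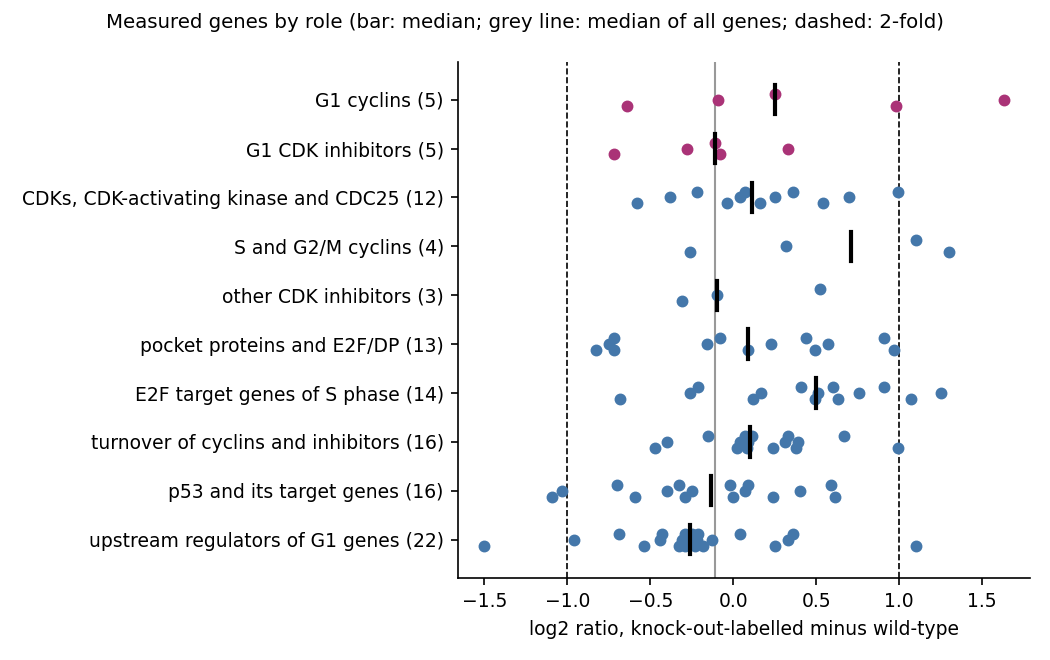
Log2 ratio of each measured gene by list, with the number of measured genes in brackets, the list median as a black bar, the median of all measured genes, -0.11, as a grey line and 2-fold as dashed lines. The S and G2/M cyclins (median 0.71) and the S phase targets of E2F (0.50) have the highest medians, and the upstream regulators the lowest (-0.26).

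Markers of the cell types in the scrapings also differed between the arrays. Counts of ratios below 0 are to be read beside the median of all measured genes, -0.11. Of 8 measured crypt proliferation genes, 7 had ratios above 0. Of the 8, 3 were at least 2-fold higher, namely Plk1, Bub1 and Aurkb, beside 2.25% of all measured genes. The summed scaled signal of the 8 was 2173 on the wild-type array and 3911 in the other. All 9 measured absorptive enterocyte genes were below 0, with sums of 526425 and 327300.1, and 1 of them, Lct, was at least 2-fold lower. Their median was -0.64, and it was -0.26 after loess and -0.07 after quantile normalization. The last value is 0.05 below the median of all genes. With the hybridisation spikes made equal it was 0.14, beside 0.61 for all genes. Goblet cell genes had 6 of 7 below 0 and sums of 255552 and 127825. Their median went from -0.65 to -0.30 after loess and -0.28 after quantile normalization. Of these 7, 2 were at least 2-fold lower, Muc2 at -3.34 and Fcgbp at -1.21, beside 5.08% of all measured genes. Paneth cell genes had 3 of 5 below 0 and sums of 66599 and 23840. Of the 5, 2 were at least 2-fold lower. These were Lyz1, with signals of 41914 and 4373 and a log2 ratio of -3.26, and Itln1, with 9719 and 609 and -4.00. Pla2g2a was at -0.48, while Mmp7 and Ang4 were above 0, at 0.50 and 0.45. Defa24 and Defa17 had no probe set of their own. T lymphocyte genes had 6 of 6 below 0 with sums of 2969 and 2091, and Cd4 was below the floor on both arrays. B lymphocyte and plasma cell genes had 4 of 6 below 0 with sums of 13068 and 9354. Macrophage and dendritic cell genes had 8 of 8 below 0 with sums of 8536 and 3793, and 3 were at least 2-fold lower, namely Lyz2, Itgax and Cd68. Smooth muscle and fibroblast genes had 5 of 9 above 0 with sums of 2383 and 2828 and Cnn1 below the floor on both. Of the 9, 1 was at least 2-fold higher, Col1a1, with its wild-type signal below the floor. Endothelial genes had 2 of 4 above 0 with sums of 323 and 312 and Pecam1 and Vwf below the floor on both. In the T lymphocyte, B lymphocyte and plasma cell, and endothelial lists, 0 genes passed 2-fold. The part of these differences in the cyclin and inhibitor ratios was not tested.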

How the data were processed

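Total RNA from intestinal scrapings was pooled by genotype, labelled by in vitro transcription and hybridised, per the labels' protocols. The authors deposited linear intensity values, MAS5 signals per the submitters' processing notes, with trimmed means of 500 on both arrays. The MAS5 version is not given in the sources used here. Of 45037 non-control probe sets, 34945 have 1 gene symbol and 932 several. Symbols were updated by Entrez number through RefSeq (GRCm38.p6), which held 99.4% of them, and those with several were not used. Arrays were scaled to a common 75th percentile (factors 1.034 and 0.967), floored at the 50th percentile, 68.1 units, and log2 was taken. Where 1 array is at the floor the ratio is a bound. The SD between probe sets used those above 2 times the floor on both arrays. Called means at least 2-fold. Promoter windows are the 250 bases before RefSeq starts. Python 3.11.15, pandas 2.3.3, NumPy 2.4.6 and statsmodels 0.14.6 were used. The 2-fold count was tested on simulated data with changes planted only in genes well above the floor. That test does not bear on dim calls such as Ccne1.

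The members, lists and alternatives were chosen with earlier results of these data known. All members were named. In each pathway list, up to 3 genes at each end past 2-fold were named, or the highest and lowest where none passed. Alternatives were the values as deposited, quantile and loess normalization, spikes made equal, other floors, other choices of probe set, and thresholds of 1.5-fold and 3-fold. Setting the median ratio of the labelling spikes to 0 was added after seeing the data.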

Additional observations from a re-analysis of the deposited data

How the results depend on the processing

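The 1 gene called at least 2-fold higher, Ccne1, beside 2.25% of all measured genes, became 2 for the values as deposited, after quantile normalization and with the labelling spikes made equal, beside 2.99%, 2.82% and 3.36%. It became 4 with the hybridisation spikes made equal, beside 19.9%, and 2 with the median ratio of the labelling spikes set to 0, a scaling added after seeing the data, beside 5.58%. It became 0 with the floor at the 25th or the 75th percentile, beside 6.85% and 1.18%. It was also 0 with the median over probe sets and with probe sets without a suffix, beside 1.76% and 2.17%. At a threshold of 1.5-fold it became 2, and the count of lower genes went from 0 to 2. The shares of all genes at 1.5-fold were not computed. The 2 higher probe sets became 4 and 0 with the floor at the 25th and the 75th percentile. They became 8 with the hybridisation spikes made equal, 1 without suffixed probe sets and 1 at 3-fold. The 0 lower probe sets became 4 at 1.5-fold. Shares of all probe sets were not computed in these alternatives, so these counts cannot be set against the whole array. Equal hybridisation spikes put the members' median at 0.69, beside 0.61 for all genes, and the added scaling put it at 0.24, beside 0.20. The Ccne1 ratio was -0.12 with the floor at the 25th percentile and without suffixed probe sets, because another probe set was then read. With the floor at the 75th percentile 6 of the 10 members were measured. Of 96 alternative ratios of single members, 22 moved by at least the SD of 0.30 and 17 changed sign, 2 of them, both of Ccne1, from a value past 2-fold.

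With the hybridisation spikes made equal, 19.9% of all genes were at least 2-fold higher. Among the genes measured in that scaling, 5 of 12 kinases and activators and 9 of 14 E2F targets passed that threshold. So did 1 of 3 other inhibitors, 4 of 15 genes in the p53 list and 6 of 12 pocket proteins and E2F factors. The same held for 6 of 16 turnover genes, 4 of 21 upstream regulators and 3 of 3 later cyclins. With the values as deposited or the labelling spikes made equal there were 1 kinase, 2 pocket protein or E2F genes, 1 turnover gene, 3 E2F targets, 2 later cyclins and 1 upstream regulator, and 0 in the other lists. The 2 lower genes of the p53 list became 0 in these 3 scalings. No paired analysis was possible because each group has 1 array. Signals near the floor limit Ccne1, Cdkn1c and the dim probe sets of Ccnd2.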
